A study of Mus musculus with 12 samples.

Results

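The light chain variable (V) segments of the mouse immunoglobulin loci were examined in RNA-seq of hematopoietic stem cells (HSCs) sorted from bone marrow. The genes were selected on their name and on their reads: every gene whose symbol begins with Igkv (kappa) or Iglv (lambda) and that held at least 10 reads over all libraries. This gave 88 of the 163 such genes in the table of 55335 genes, namely 85 of 160 kappa segments and all 3 lambda segments. Of the others, 48 held 1 to 9 reads and 27 held none. At the limit, Igkv4-69 and Igkv3-3 were kept with 10 reads each, and the pseudogene Igkv14-118-1 stayed out with 9 reads. The 88 segments held 217823 of the 218001 reads on light chain V genes, and 4 of them are annotated as pseudogenes.

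An antibody light chain is encoded by a V segment that has been joined to a J segment in a B-lineage cell and is then spliced to a constant gene. A B cell usually keeps 1 productive light chain rearrangement, of the kappa or of the lambda locus, so a clone of B cells or plasma cells transcribes mainly 1 V segment. Plasma cells, which live in the bone marrow, transcribe their rearranged light chain at very high levels. HSCs have not rearranged these loci.

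Ythdc1 encodes a nuclear reader of the RNA mark m6A. The Ythdc1Δ/Δ samples came from Ythdc1 fl/fl Mx1-Cre mice and the Ythdc1+/+ samples from Ythdc1+/+ Mx1-Cre mice, all on the strain labelled C57B6 and all given pIpC, which switches on the interferon-driven Cre. The study's methods place donor mice at 8 weeks of age. Mx1-Cre acts in many interferon-responsive cells and not in HSCs alone. Polyadenylated RNA was measured in 12 libraries that carry 6 sample numbers, 3 for each genotype and 2 libraries for each number. The 2 libraries of a number were summed, giving n = 3 against 3, and the samples are called KO176, KO177 and KO209 (Ythdc1Δ/Δ) and WT178, WT180 and WT207 (Ythdc1+/+). Whether a number stands for 1 mouse or a pool is not given, so p-values measure the spread between these samples.

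Each library held 20809936 to 24563170 counted reads, and levels are given as CPM (counts-per-million with TMM scaling). Over all its exons Ythdc1 was at 65.3 ± 7.36 CPM (SD, n = 3) in Ythdc1Δ/Δ and 80.3 ± 10.6 CPM (SD, n = 3) in Ythdc1+/+ samples, with every Ythdc1Δ/Δ sample below every Ythdc1+/+ sample (log2 fold change -0.30 with an SE of 0.13, edgeR adjusted p = 0.521). Of 12 HSC markers 11 had a lower fitted value in Ythdc1Δ/Δ samples and none was called, and their summed level was 1225 to 1290 CPM against 1536 to 1662 CPM. In bulk samples fewer cells of a type and less RNA per cell cannot be told apart.

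The V segments that the results turn on are shown first. The lines below give the last 90 coding bases of 7 kappa V segments, the end that is joined to J, 5′ to 3′ on the coding strand, with positions on mm10 (GRCm38) and bases from the GENCODE vM21 transcripts. Capitals mark the last in-frame cysteine codon, the conserved cysteine at which the third hypervariable loop begins. Igkv14-126 led in every sample, Igkv14-100 is a family member that was high in 1 sample, Igkv8-21 was called between genotypes, Igkv6-32 and Igkv12-89 ranked second in 1 sample each, and Igkv13-84 and Igkv4-62 were high in 1 sample each.
Igkv14-126 (chr6:67896553-67896642, plus strand): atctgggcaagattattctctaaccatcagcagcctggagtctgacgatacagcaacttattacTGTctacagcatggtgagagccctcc
Igkv14-100 (chr6:68519388-68519477, plus strand): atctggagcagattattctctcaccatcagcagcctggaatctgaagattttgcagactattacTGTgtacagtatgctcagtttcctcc
Igkv8-21 (chr6:70314895-70314984, minus strand): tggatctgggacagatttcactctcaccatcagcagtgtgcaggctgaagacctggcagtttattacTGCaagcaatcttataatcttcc
Igkv6-32 (chr6:70074024-70074113, minus strand): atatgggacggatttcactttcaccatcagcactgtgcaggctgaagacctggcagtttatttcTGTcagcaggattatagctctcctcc
Igkv12-89 (chr6:68834846-68834935, minus strand): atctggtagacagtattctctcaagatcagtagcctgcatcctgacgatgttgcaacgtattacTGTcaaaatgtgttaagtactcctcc
Igkv13-84 (chr6:68939978-68940067, plus strand): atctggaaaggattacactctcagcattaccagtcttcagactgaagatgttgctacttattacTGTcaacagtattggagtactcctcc
Igkv4-62 (chr6:69399812-69399901, minus strand): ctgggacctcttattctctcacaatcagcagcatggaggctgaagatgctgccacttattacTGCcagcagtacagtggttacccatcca
The 2 segments of the Igkv14 family shared 290 of 355 aligned coding positions (81.7%). The nearest segment to Igkv14-126 was Igkv14-111, at 91.5% identity, and the nearest to Igkv8-21 was Igkv8-30, at 92.6%. None of Igkv14-126, Igkv14-100 or Igkv8-21 held a stretch of 100 bases that occurs in another light chain V transcript. Of the 88 segments, 47 held no such stretch and 2, Igkv6-20 and Igkv6-29, shared 55.8% of theirs each. These 2 were named after their values were seen. Read pairs that matched several places were not counted, so levels of segments with shared stretches are uncertain.

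Iglv1 and Iglv2 are nearly the same sequence. Of 351 coding bases 340 were identical (96.9%) and 11 differed, and 1.71% of the 100-base stretches of Iglv1 occurred in another segment. The lines below give 150 bases of the V exon that hold 5 of those 11 differences, in capitals, and show how few bases separate the reads of one from the other.
Iglv1 (chr16:19085024-19085173, minus strand): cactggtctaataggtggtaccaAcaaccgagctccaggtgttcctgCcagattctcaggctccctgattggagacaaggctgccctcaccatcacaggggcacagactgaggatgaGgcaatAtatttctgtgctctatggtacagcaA
Iglv2 (chr16:19260408-19260557, minus strand): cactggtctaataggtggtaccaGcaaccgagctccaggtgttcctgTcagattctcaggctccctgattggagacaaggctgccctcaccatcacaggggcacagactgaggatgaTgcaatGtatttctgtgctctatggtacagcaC
Iglv3 was far from both, at 58.2% identity to Iglv1.

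Both light chain classes were higher in Ythdc1Δ/Δ samples. Summed over the 85 kappa segments, the level was 1011 CPM in KO176, 606 CPM in KO177 and 1664 CPM in KO209, and it was 186 CPM in WT178, 289 CPM in WT180 and 430 CPM in WT207. The genotypes did not overlap: the lowest Ythdc1Δ/Δ sample was above the highest Ythdc1+/+ sample. Means were 1094 ± 534 CPM (SD, n = 3) and 302 ± 123 CPM (SD, n = 3), a ratio of 3.63. Summed over Iglv1, Iglv2 and Iglv3, the lambda level was 88.8 CPM in KO176, 125 CPM in KO177 and 160 CPM in KO209, against 45.3 CPM in WT178, 24.6 CPM in WT180 and 54.9 CPM in WT207. These did not overlap either, with means of 125 ± 35.8 CPM (SD, n = 3) and 41.6 ± 15.5 CPM (SD, n = 3), a ratio of 3.0. The sums are a description with no test, since the segments were chosen with results of these data known.

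**Figure D1:**
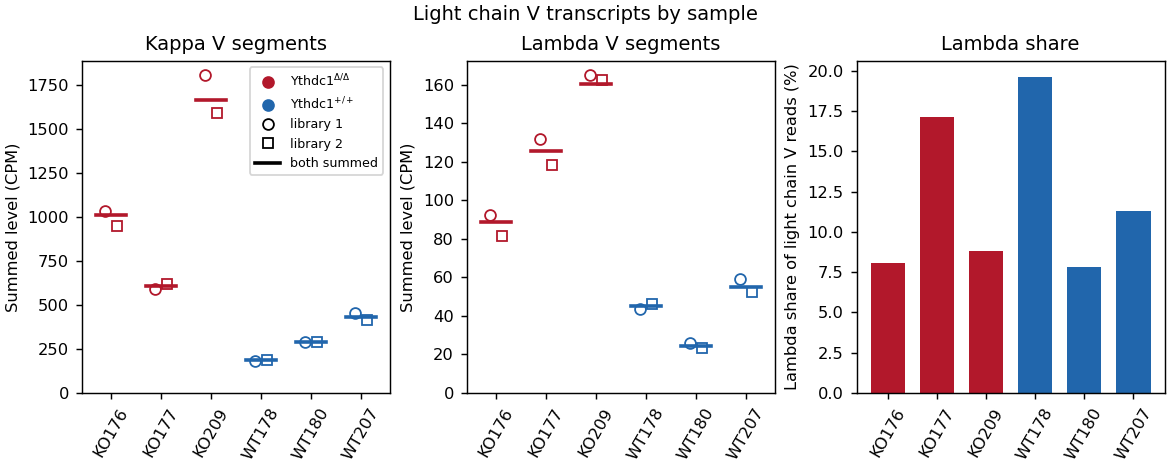
Summed level of kappa V segments (left) and lambda V segments (middle) in CPM and the lambda share of light chain V reads in percent (right), for each sample. Circles and squares are libraries 1 and 2 of a sample, lines are both libraries summed, red is Ythdc1Δ/Δ and blue is Ythdc1+/+. All 3 Ythdc1Δ/Δ samples lie above all Ythdc1+/+ samples in both sums, while the lambda share overlaps.

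Libraries of 1 number gave nearly the same sum, differing by at most 12.4% for kappa. Within KO176, KO177, WT178 and WT180 alone the ratio of the means was 3.41 for kappa and 3.06 for lambda, and between the single samples KO209 and WT207 it was 3.87 and 2.92. Light chain V reads made up 0.0992%, 0.0715% and 0.197% of the counted reads in KO176, KO177 and KO209, and 0.0229%, 0.0315% and 0.0514% in WT178, WT180 and WT207. The total did not rest on the leading segment, since without Igkv14-126 the ratio for all light chain V segments was 3.55, as it was with it (3.55).

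Constant genes moved alongside. Igkc, the kappa constant gene (chr6:70726435-70726966), was at 2071, 1145 and 3058 CPM in KO176, KO177 and KO209 and at 324, 566 and 712 CPM in WT178, WT180 and WT207, with no overlap. It was not called, with a log2 fold change of 1.97, an SE of 0.44 and an edgeR adjusted p = 0.285. For each 100 reads on Igkc there were 48.8 to 54.4 kappa V reads in Ythdc1Δ/Δ samples and 51.1 to 60.4 in Ythdc1+/+ samples, which overlapped. For each 100 reads on the Iglc genes there were 77.5 to 87.8 lambda V reads in Ythdc1Δ/Δ samples and 70.0 to 76.9 in Ythdc1+/+ samples, which did not overlap. The 5 Igkj genes each stayed under 1 CPM in every sample. Jchain, the joining chain of IgM and IgA polymers, was at 228, 156 and 482 CPM against 35.3, 91.6 and 92.2 CPM, again with no overlap and no call (log2 fold change 1.98 with an SE of 0.62, edgeR adjusted p = 0.449).

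The lambda share of light chain V reads did not separate the genotypes. It was 8.07% in KO176 (95% exact binomial interval 7.82 to 8.32%), 17.1% in KO177 (16.7 to 17.5%) and 8.79% in KO209 (8.61 to 8.98%). In Ythdc1+/+ samples it was 19.6% in WT178 (18.8 to 20.4%), 7.83% in WT180 (7.40 to 8.26%) and 11.3% in WT207 (10.9 to 11.7%). The highest and the lowest share were both in Ythdc1+/+ samples, and the spread within a genotype was many times the counting interval, which covers counting error only. Means were 11.3 ± 5.04% (SD, n = 3) and 12.9 ± 6.07% (SD, n = 3). Kappa held the rest, 80.4% to 92.2% of the reads in a sample. The constant genes gave the same picture: Iglc1, Iglc2 and Iglc3 held 4.65% to 12.4% of the light chain constant reads in Ythdc1Δ/Δ samples and 5.84% to 15.4% in Ythdc1+/+ samples.

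Within lambda, Iglv1 held most reads in every sample. Its part of the lambda reads was 88.7%, 70.8% and 72.7% in KO176, KO177 and KO209, and 79.2%, 78.0% and 53.8% in WT178, WT180 and WT207. Iglv2 held from 5.50% in WT178 to 44.8% in WT207. Iglv3 held 15.3% of the lambda reads in WT178, more than Iglv2 there, and 0.683% to 1.44% in the other 5 samples. Iglv2 lies upstream of Iglc2 and is mostly joined to its J segment, and Iglv1 lies upstream of Iglc3 and Iglc1. Iglc2 was at 18.5, 57.4 and 62.8 CPM in KO176, KO177 and KO209 and at 12.9, 11.6 and 35.8 CPM in WT178, WT180 and WT207. Ordered by level, the samples ran KO209, KO177, WT207 and KO176 from the top for Iglv2 and for Iglc2 alike. Below them WT180 was above WT178 for Iglv2 (5.08 and 2.49 CPM) and under it for Iglc2. Iglc1 was at 73.1, 94.3 and 109 CPM in KO176, KO177 and KO209. It was at 45.4, 12.6 and 34.1 CPM in WT178, WT180 and WT207, without overlap and without a call (edgeR adjusted p = 0.430). Iglc2 and Iglc3 are near-identical copies, so the split of reads between them is uncertain. Iglc3 was at 9.50, 10.1 and 26.6 CPM against 0.599, 10.9 and 1.56 CPM. The Iglj genes did not pass 1.5 CPM in any sample.

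A segment was mostly either clearly present in a sample or nearly absent. Of the 528 values (88 segments in 6 samples), 214 were at 1 CPM or more, 298 were under 0.2 CPM, and 16 (3.03%) lay between. A count of 0 allows a level of up to 0.0605 to 0.0719 CPM in these samples (3 reads, counting error only). The pattern belonged to the sample number and not to the library: a segment that reached 1 CPM in a library did so in both libraries of the number on 213 occasions and in 1 library only on 2. Of the pairs in which a library reached 5 CPM, 98.3% (174 pairs) agreed within 1.5-fold. Over the 88 segments the log2 levels of 2 libraries of 1 number had a correlation of 0.995 to 0.998. Libraries of different numbers had one of 0.221 to 0.529 (60 pairs, description only). Libraries of a number were not taken as independent, and the labels do not say whether they share a source.

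**Figure D2:**
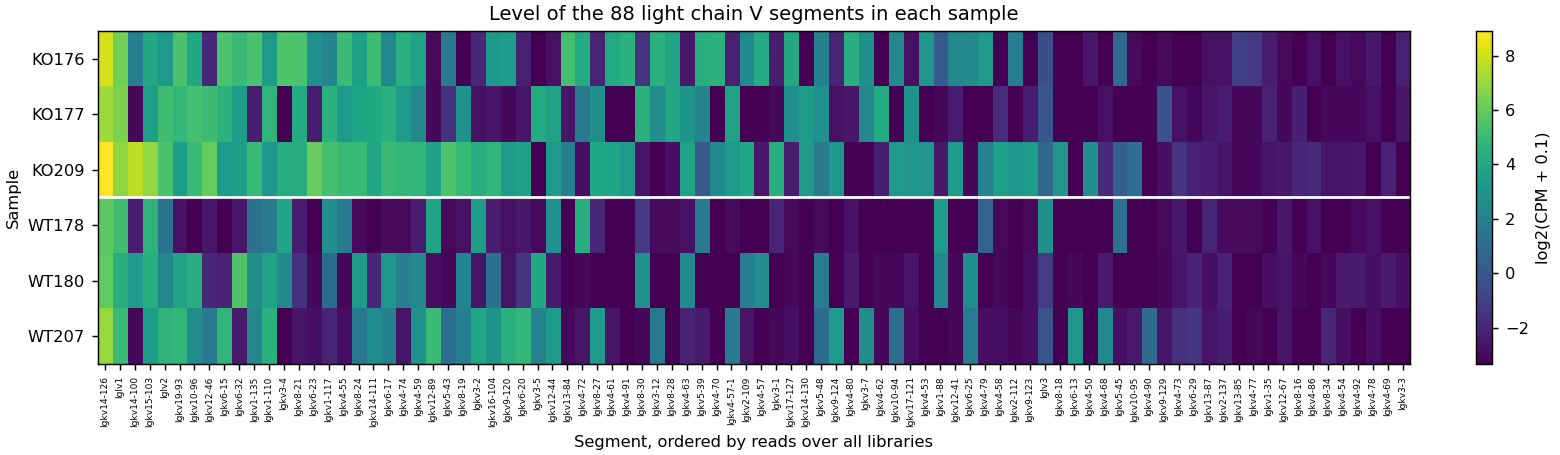
Level of the 88 segments in each sample, as log2(CPM + 0.1), with segments ordered from the most to the fewest reads and a white line between Ythdc1Δ/Δ (upper) and Ythdc1+/+ samples (lower). Bright cells stand beside dark ones within a column, 214 of 528 values being at 1 CPM or more, and the upper rows hold more bright cells.

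More segments were detected, at 1 CPM or more, in Ythdc1Δ/Δ samples. There were 46 in KO176, 35 in KO177 and 55 in KO209, against 18 in WT178, 26 in WT180 and 34 in WT207, with no overlap. The count ranked the 6 samples in the same order as the number of V reads. These were 46553, 33321 and 90421 in KO176, KO177 and KO209 against 9626, 15143 and 22759 in WT178, WT180 and WT207. Counted instead as segments with at least 0.1% of the V reads of the sample, there were 45, 37 and 53 against 19, 27 and 35. The genotypes again did not overlap, and the order of the samples was again that of their V reads. A difference in the number of segments beyond that in V reads was not tested. Of the 88 segments 47 were detected in both genotypes, 21 in Ythdc1Δ/Δ samples only, 3 in Ythdc1+/+ samples only and 17 in no sample. The 3 were Igkv6-13, Igkv4-68 and Igkv4-90, each of them in WT207 alone. Only 5 segments were detected in all 6 samples, Igkv14-126, Igkv15-103, Igkv1-110, Iglv1 and Iglv2. Igkv1-110 and Igkv4-90 were named after their values were seen.

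Igkv14-126 (chr6:67896172-67896642, plus strand), a kappa segment far from the constant gene, was the leading segment in each of the 6 samples. It was at 272, 139 and 476 CPM in KO176, KO177 and KO209 and at 58.7, 59.7 and 131 CPM in WT178, WT180 and WT207. Its share of the light chain V reads was 24.7%, 19.0% and 26.1% in the Ythdc1Δ/Δ samples and 25.4%, 19.0% and 26.9% in the Ythdc1+/+ samples. The exact binomial intervals of these shares were at most 1.75 percentage points wide. The share thus ranged over the same values in both genotypes (23.3 ± 3.77% and 23.8 ± 4.21%, SD, n = 3), while the level was higher in every Ythdc1Δ/Δ sample. Per kilobase of exon it led in each sample too, with 19.6% to 27.5% of the V level. The fold change was not called (log2 fold change 1.83 with an SE of 0.61, edgeR adjusted p = 0.470).

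**Figure D3:**
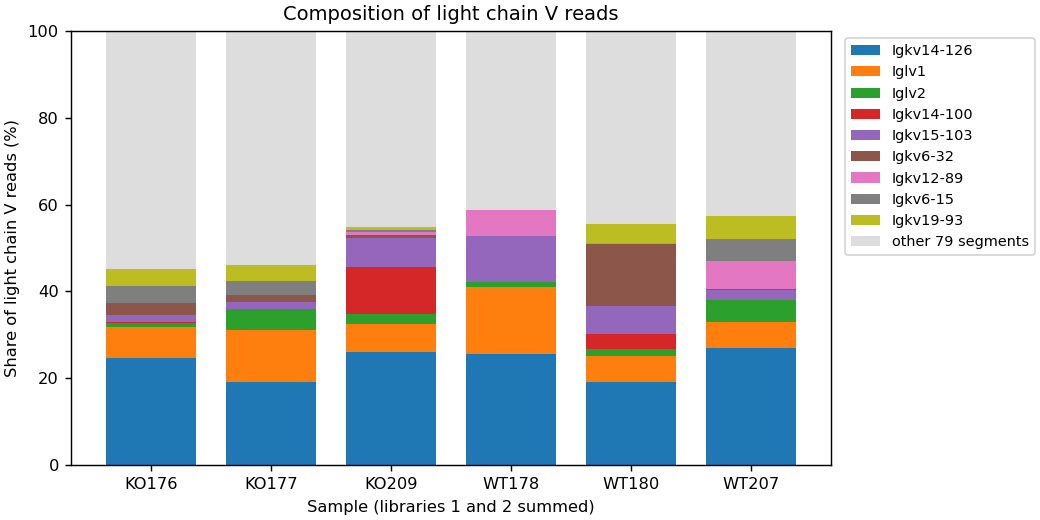
Share of the light chain V reads of each sample held by 9 segments, in percent, with the other 79 segments in grey. Igkv14-126 takes 19.0% to 26.9% in every sample, while the segments above it differ from sample to sample.

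The second segment differed between samples. It was Iglv1 in KO176 (7.16% of the V reads), KO177 (12.1%) and WT178 (15.5%), Igkv14-100 in KO209 (10.9%), Igkv6-32 in WT180 (14.5%) and Igkv12-89 in WT207 (6.55%). The top 10 segments held 61.1% to 65.9% of the V reads in Ythdc1Δ/Δ samples and 72.9% to 88.5% in Ythdc1+/+ samples. The effective number of segments, which is 1 over the sum of the squared shares, was 12.1, 14.3 and 10.4 in KO176, KO177 and KO209 and 8.09, 12.1 and 9.94 in WT178, WT180 and WT207, and overlapped. Without Igkv14-126 it was 26.1, 19.3 and 19.3 against 9.43, 14.1 and 19.1, with the lowest Ythdc1Δ/Δ sample just above the highest Ythdc1+/+ sample. Over all libraries Igkv14-126 held 24.3% of the V reads, the top 10 segments 55.3%, and 41 segments held 90%.

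Some segments were high in a single sample. A segment was called sample-specific where it reached 5 CPM in 1 sample and was at least 4 times the next sample. By that rule KO209 had 10 such segments with 28.6% of its V reads, KO176 had 3 with 7.37%, KO177 had 1 with 2.39%, WT178 had 1 with 3.01%, WT207 had 2 with 2.75%, and WT180 had none. Igkv14-100 stood out in KO209 at 199 CPM (9846 reads), with 10.6 CPM in WT180 as the next and 3.59, 0.0219, 0.0959 and 0.0213 CPM in KO176, KO177, WT178 and WT207. Igkv15-103 was at 121 CPM in KO209 and at 11.2 to 24.6 CPM in the other 5 samples. Igkv3-1, the segment nearest the constant gene, was at 21.0 CPM in KO209 and at most 0.144 CPM elsewhere, and Igkv8-18 had 408 reads in KO209 and none in any other sample.

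The other samples had their own segments. In KO176, Igkv4-80 was at 20.7 CPM with at most 0.0829 CPM elsewhere, and Igkv13-84 was at 39.6 CPM with 3.59 CPM in KO209 and at most 0.0658 CPM in the rest. In KO177, Igkv4-62 was at 17.4 CPM and at most 0.101 CPM in any other sample. In WT178, Iglv3 was at 6.95 CPM and at 0.332 to 1.61 CPM elsewhere. In WT207, Igkv6-13 was at 8.31 CPM (390 reads) with 1 read in all other samples together, and Igkv4-68 was at 5.05 CPM with at most 0.182 CPM elsewhere. In each case both libraries of the number carried the segment, for example 20.1 and 20.5 CPM for Igkv4-80 and 9.25 and 7.65 CPM for Igkv6-13. Igkv4-80, Igkv13-84, Igkv4-62, Igkv8-18, Igkv3-1, Igkv6-13 and Igkv4-68 did not pass the filter on low counts and were not tested between genotypes.

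The segment-wise test was read out of one fit over all 18234 genes that passed the filter. It called 25 genes at an adjusted p under 0.05, which is 0.137% of them, with 0.0877% higher and 0.0494% lower in Ythdc1Δ/Δ samples. Of the 88 light chain V segments 46 passed the filter, with 89.1% of the V reads, and 2 were called, both higher: Iglv1 and Igkv8-21. At an unadjusted p under 0.05 5 segments were higher and none was lower, where 4.28% and 5.2% of all genes were. The fitted value was higher in Ythdc1Δ/Δ samples for 39 of the 46 and lower for 7, while it was higher for 48.9% of all genes. All Ythdc1Δ/Δ samples were above all Ythdc1+/+ samples for 7 segments and below them for none, against 7.75% and 8.59% of all genes. A segment could pass the filter through the genotype in which it was high, so these counts describe the 46 and not all 88. Among the 42 that did not pass, the mean was higher in Ythdc1Δ/Δ samples for 31 and lower for 11.

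Iglv1 (chr16:19085017-19085500, minus strand), the most used lambda segment, was at 78.7, 88.7 and 117 CPM in KO176, KO177 and KO209 and at 35.9, 19.2 and 29.5 CPM in WT178, WT180 and WT207. The lowest Ythdc1Δ/Δ sample was more than double the highest Ythdc1+/+ sample. Means were 94.7 ± 19.6 CPM and 28.2 ± 8.44 CPM (SD, n = 3), which gave a log2 fold change of 1.75 with an SE of 0.24 and an edgeR adjusted p = 0.0484. The call lay at the threshold. It was lost in 11 of 17 alternatives, where the adjusted p was 0.0528 to 0.246, among them every fit that left out 1 sample (0.0715 to 0.246), while the log2 fold change stayed between 1.53 and 1.96.

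Igkv8-21 (chr6:70314895-70315472, minus strand) was present in all 3 Ythdc1Δ/Δ samples and nearly absent from all 3 Ythdc1+/+ samples, the only segment of the 88 detected in that way. It was at 43.3, 17.9 and 19.8 CPM in KO176, KO177 and KO209 (1831, 814 and 979 reads) and at 0.0959, 0.249 and 0.0640 CPM in WT178, WT180 and WT207 (4, 12 and 3 reads). Its log2 fold change of 7.57, with an SE of 0.61 and an edgeR adjusted p = 0.0216, rests on few reads in the Ythdc1+/+ samples. The call was lost without WT178 (adjusted p = 0.219), without WT207 (0.113) and with no filter on low counts (0.117), and it was kept in the other 14 of 17 alternatives. Its nearest relative Igkv8-30 had another pattern, with 22.6 CPM in KO177, 7.38 CPM in WT180 and at most 0.312 CPM in the other samples. Igkv8-30 was named after its values were seen.

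**Figure D4:**
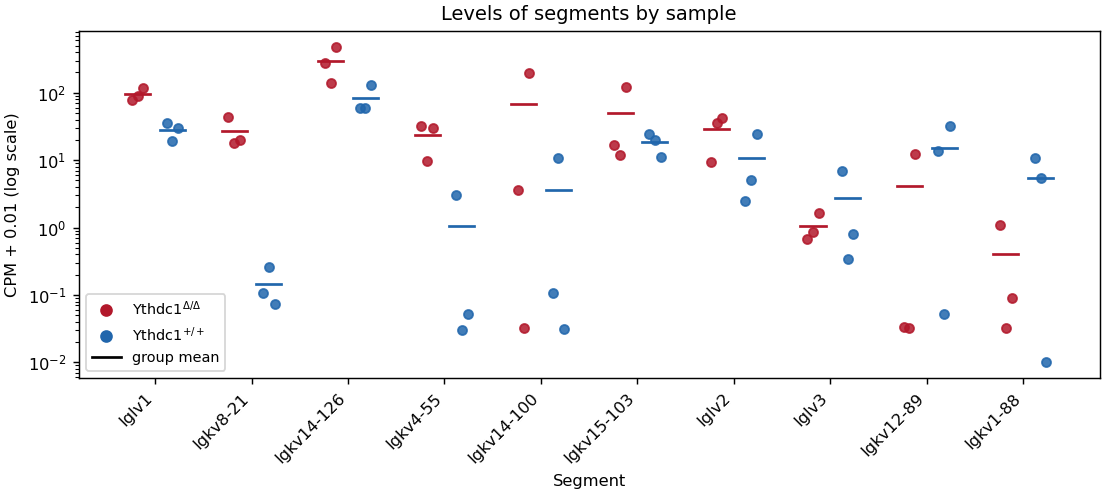
CPM + 0.01 on a log scale for 10 segments in each sample, Ythdc1Δ/Δ in red and Ythdc1+/+ in blue, with a line at the mean of each genotype. Iglv1, Igkv8-21, Igkv14-126 and Igkv4-55 separate the genotypes, and of these Iglv1 and Igkv8-21 were called. The samples of both genotypes overlap for the other segments drawn.

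Igkv4-55 came next by p among the higher segments. It was at 31.8, 9.81 and 30.1 CPM in KO176, KO177 and KO209 and at 3.07, 0.0207 and 0.0426 CPM in WT178, WT180 and WT207, without overlap and without a call (log2 fold change 4.60 with an SE of 1.28, edgeR adjusted p = 0.413). The lower segments with the smallest p were Igkv1-88, Iglv3 and Igkv12-89, none of them called and all of them overlapping. Igkv1-88 was at 10.8 and 5.35 CPM in WT178 and WT180 and had no read in WT207, with 1.09, 0.0219 and 0.0807 CPM in KO176, KO177 and KO209 (log2 fold change -3.81 with an SE of 1.86). Igkv12-89 was at 13.7 and 31.8 CPM in WT178 and WT207 and at 12.5 CPM in KO209, and at most 0.0415 CPM in the other 3 samples (log2 fold change -1.82 with an SE of 2.07). The value of Iglv3 (log2 fold change -1.29 with an SE of 1.28) turned positive without WT178 (0.92). The smallest adjusted p of any lower segment was 0.615.

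The remaining abundant segments overlapped between genotypes. Igkv12-46 was at 33.3 and 64.5 CPM in KO177 and KO209 and at 0.165 CPM in KO176, with 0.0719 to 3.30 CPM in Ythdc1+/+ samples. Igkv6-32 was highest in a Ythdc1+/+ sample, 45.4 CPM in WT180, and otherwise at 31.0, 11 and 11.5 CPM in KO176, KO177 and KO209 and at most 0.0853 CPM in WT178 and WT207. Igkv19-93, Igkv10-96 and Igkv6-15 were at 10.6 to 43.1 CPM in every Ythdc1Δ/Δ sample, and in Ythdc1+/+ samples they ran from 0 CPM or nearly so in WT178 up to 25.9 CPM in WT207. Iglv2 was at 9.41, 35.8 and 42.2 CPM against 2.49, 5.08 and 24.6 CPM (log2 fold change 1.44 with an SE of 1.09). The standard errors were large: their median was 1.77 on the log2 scale over the 46 segments and 0.19 over all tested genes. The median log2 fold change of the 46 was 1.71, and that of all tested genes was -0.0062.

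Kappa segments fall into families of related sequence, the number before the hyphen. The mean level of all 16 families was higher in Ythdc1Δ/Δ samples, and for 8 of them the samples did not overlap. Among single tested genes 48.9% had a higher fitted value in Ythdc1Δ/Δ samples. All Ythdc1Δ/Δ samples were above all Ythdc1+/+ samples for 7.75% of those genes. Igkv14, with 4 segments, held 34.8% of the kappa reads, and Igkv4, the largest family with 25 segments, held 11.8%. Igkv4 as a whole was at 204, 67.4 and 170 CPM in KO176, KO177 and KO209 and at 24.9, 21.9 and 18.2 CPM in WT178, WT180 and WT207. Igkv8 was at 71.6, 85.6 and 106 CPM against 0.672, 22.2 and 16.3 CPM. By contrast Igkv12 overlapped, with 5.41, 46.7 and 97.7 CPM against 21.0, 0.374 and 45.2 CPM. Family sums share the samples' total level and are given as a description.

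The kappa V segments of the table spread over 3.15 Mb of chromosome 6 (67555497 to 70704177 on mm10), with Igkc beyond their proximal end on the plus strand. When this stretch was cut into 3 parts of equal length, the part nearest Igkc had 33 of its 53 segments among the 85 and 29.3% of the kappa reads, the middle part 34 of 60 and 20.3%, and the part farthest from Igkc 18 of 47 and 50.4%. Without Igkv14-126 the far part held 31.9% and the near part 40.2%. Across samples the far part ran from 40.0% in KO177 to 59.6% in KO209. Segments on the strand of Igkc join by deletion and those on the opposite strand by inversion. The 29 plus-strand segments held 58.6% of the kappa reads (48.5% to 66.0% in a sample) and the 56 minus-strand segments held 41.4%.

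**Figure D5:**
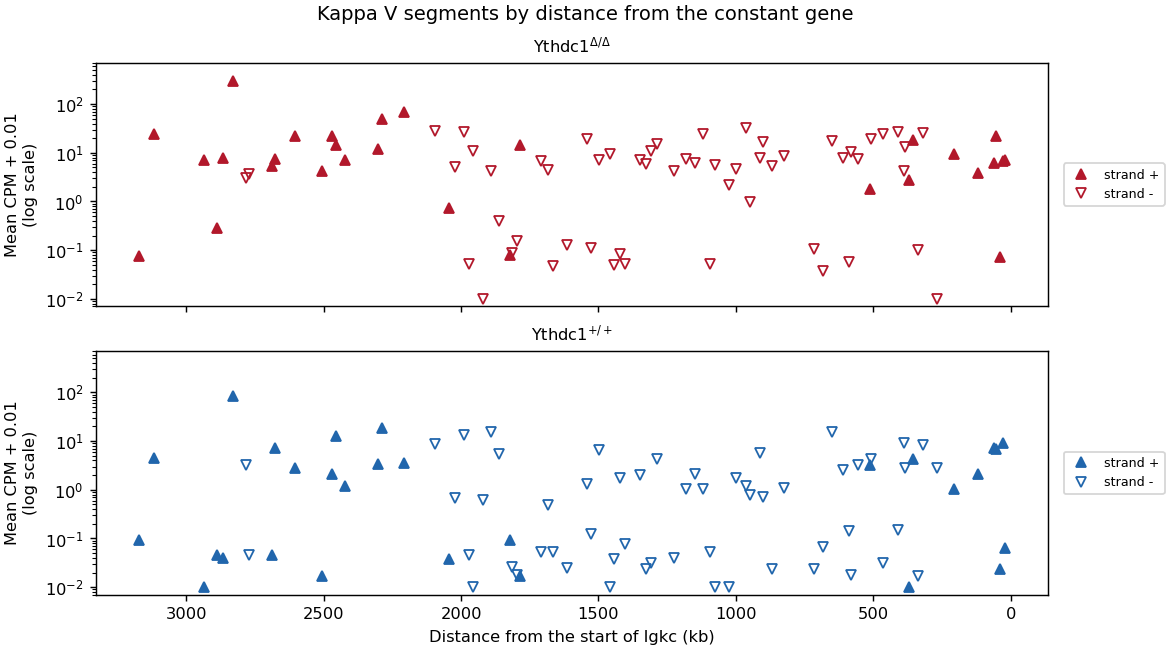
Mean level (CPM + 0.01, log scale) of the 85 kappa V segments against their distance from the start of Igkc in kilobases, for Ythdc1Δ/Δ (upper) and Ythdc1+/+ samples (lower). Filled triangles are plus-strand and open triangles minus-strand segments. Segments above 1 CPM occur along the whole locus in both genotypes, and Igkv14-126 is the highest point in each.

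Marker lists of other cells were read beside the light chain level, and their part in it was not tested. All 13 plasma cell markers had a higher fitted value in Ythdc1Δ/Δ samples. Their summed level was 820 to 1143 CPM against 646 to 774 CPM, Jchain included. Without Jchain, at 156 to 482 CPM against 35.3 to 92.2 CPM, the sums of the genotypes overlap. Xbp1, the largest part of the rest, was at 254 to 348 CPM against 241 to 328 CPM. Of the 13 markers only Jchain, Mzb1 and Pou2af1 were higher in every Ythdc1Δ/Δ sample, where 7.75% of all tested genes were. One was called: Pou2af1, a B-lineage coactivator of immunoglobulin promoters, at 3.0, 2.94 and 3.17 CPM against 0.791, 0.974 and 1.15 CPM (log2 fold change 1.63 with an SE of 0.22, edgeR adjusted p = 0.0332). Mzb1, a plasma cell chaperone, was at 1.21, 1.05 and 1.63 CPM against 0.360, 0.477 and 0.704 CPM and was not called (adjusted p = 0.238 from edgeR). Irf4 was under 1 CPM in every sample. It and the other named markers that were not called, apart from Jchain, were named after their values were seen. The 14 B cell markers had a summed level of 295 to 322 CPM against 302 to 312 CPM, with 11 higher and none called. Most of this sum was Cd37 and Cd79b, whose fitted values were slightly lower (log2 fold changes -0.0864 and -0.0587). Cd79a, Ebf1, Blnk, Fcmr, Bank1 and Fcrla were higher in every Ythdc1Δ/Δ sample, where 7.75% of all tested genes were. The rest overlapped. Cd79a was at 12.3 to 16.7 CPM against 6.83 to 8.06 CPM (edgeR adjusted p = 0.0622). These markers too were named after their values were seen. Ms4a1, Pax5, Blk, Cd22, Fcmr and Cr2 were under 1 CPM in every sample.

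All 8 B cell precursor markers had a higher fitted value (312 to 407 CPM against 196 to 251 CPM in sum, most of it Dntt, with the recombinase gene Rag1 under 1 CPM throughout) and none was called. The 8 T cell markers summed to 48.6 to 62.8 CPM against 49.8 to 58.2 CPM, with 4 of 6 tested markers higher, none called, and Cd3e, Cd3d, Cd3g and Cd8a under 1 CPM throughout. Granulocyte markers summed to 11523 to 20878 CPM against 9744 to 12538 CPM and macrophage markers to 105 to 217 CPM against 88.3 to 128 CPM, both overlapping, with all 8 and all 7 fitted values higher and none called. Of the 9 marrow stroma markers (110 to 124 CPM against 81.2 to 97.4 CPM) all 8 that were tested had a higher fitted value. Lepr, Adipoq and Sparc were called higher (log2 fold changes 2.58, 3.16 and 1.78), where 0.0877% of all tested genes were. Pdgfra and Cdh5 were under 1 CPM throughout. Most of the stroma sum was Pecam1, which overlapped (79.02 to 101 CPM against 70.8 to 91.7 CPM). Lepr, Cxcl12, Adipoq, Col1a2 and Sparc were higher in every Ythdc1Δ/Δ sample, where 7.75% of all tested genes were. Cxcl12 was at 12.5 to 17.7 CPM against 2.22 to 5.76 CPM. Pecam1, Cxcl12 and Col1a2 were named after their values were seen. KO209, with the highest light chain level, had the highest plasma cell sum (1143 CPM) and the lowest B cell sum (295 CPM). Among Ythdc1Δ/Δ samples it had the lowest granulocyte and macrophage sums. Jchain made up 482 CPM of the plasma cell sum of KO209, against 228 CPM in KO176 and 156 CPM in KO177. Without Jchain the plasma cell sum of KO209 was not the highest. Most of the B cell sum of KO209 was Cd37 (182 CPM) and Cd79b (80.7 CPM). A few genes weighed on the granulocyte and macrophage sums too: Mpo was at 10899, 5176 and 2219 CPM in KO176, KO177 and KO209. Csf1r was at 98.4, 47.6 and 18.8 CPM in those samples, while Ngp was highest in KO209 (3441 CPM). A link between the marker sums and the light chain level was not tested.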

How the data were processed

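RNA-seq was available for 12 libraries of sorted HSCs, with 6 sample numbers and 2 libraries for each number. The authors deposited whole-number counts per gene, not normalized, made with featureCounts 2.0.1 from exons of GENCODE vM23 per the file headers, on mm10. Read pairs were counted without regard to strand, pairs with several matches were left out, and the paper's methods name Hisat2 as aligner. Symbols were matched by gene identifier for 55154 of 55335 genes. Here libraries of a number were summed, and 3 samples were compared with 3 in edgeR 4.0.16 (R 4.3.3) with filterByExpr (minimum count 10, minimum total 15), TMM scaling, a robust quasi-likelihood fit and Benjamini-Hochberg adjustment over all genes tested. The procedure was tested on simulated data. The members, marker lists and tests were chosen with earlier results of these data known. Named segments were those called, the 10 most abundant, the leader of each sample, up to 2 sample-specific segments per sample, all lambda segments, the 3 smallest p in each direction and those at the limit of 10 reads, with Igkc, Iglc1, Iglc2, Iglc3, Jchain and called markers. Alternatives covered scaling, tool (DESeq2 1.42.0, limma 3.58.1), filter, library handling, number range, immunoglobulin totals and each sample left out. Sequences came from GENCODE vM21 on GRCm38 and were compared with Biopython 1.88.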

Additional observations from a re-analysis of the deposited data

How the results depend on the processing

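The kappa and lambda totals stayed higher in Ythdc1Δ/Δ samples under every alternative run (16 for each), with log2 ratios of 1.42 to 2.20 and 1.32 to 1.84, including other member sets, single libraries, plain CPM and each sample left out. The difference in lambda share ran from -4.49 to 1.76 percentage points when samples were left out. The leading share averaged 14.5% over the samples without Igkv14-126, and 22.9% to 24.4% with each sample left out. Counts of calls moved widely. The number of genes called (25) and of segments called (2) became 16 and 1 with upper quartile scaling, 73 and 1 with no filter on low counts, 3 and 1 with a minimum count of 50, 15 and 1 with the legacy fit, 84 and 1 with the number range as a covariate, 13 and 1 with totals without immunoglobulin genes, 2.1e+02 (83 higher and 124 lower) and 8 with DESeq2 run on every gene with a read (35 segments had no adjusted p), and 131 and 3 with voomLmFit and the sample number as random block. The RLE scaling gave 23 and 2. Treating the 12 libraries as separate samples gave 751 and 6, and the last digit of the library name as a replicate block 717 and 6, since libraries of a number are then counted as replicates. No paired analysis was possible because the summed samples of the 2 genotypes share no number. With each sample left out, 1 to 81 genes and 0 to 5 segments were called; no segment was called without WT178 or without WT207, where 1 and 2 genes were, and 5 were called without KO177. Estimates that were not called changed sign in 6 fits: Igkv14-100 (-1.05) and Igkv15-103 (-0.39) without KO209, Iglv3 (0.92) without WT178, and Igkv6-32 without KO176 (-0.43), WT178 (-0.35) or WT207 (-0.36). With each sample left out these ran from -1.05 to 10.17, -0.39 to 1.89, -1.84 to 0.92 and -0.43 to 7.75, and the values 10.17, 7.75 and -1.84 were without WT180. Igkv14-126 and Igkv4-55 passed only with the 12 separate libraries, with and without the block. Detection at 5 CPM, chosen after seeing the data, left 32 segments in Ythdc1Δ/Δ samples only instead of 21. The causes of these changes were not tested.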
